A study of Mus musculus with 60 samples.

Results

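Of 60 brain RNA-Seq libraries, 30 were striatum-like, and 16 of these 30, the 8 with the most and the 8 with the least Fos transcript, were compared across all genes except Fos. Both ends were selected on measured values. A library counted as striatum-like when Slc17a7, the vesicular glutamate transporter of cortical excitatory neurons, was at 100 FPKM or below (FPKM counts sequenced fragments relative to transcript length and library size). Each FPKM value was then divided by a factor for its library, the median over genes of the ratio to the typical library, and the result is called rescaled FPKM here. The 30 libraries were ranked by rescaled Fos. Because Fos chose the ends, every difference between them is a description with no test.

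The study compared cortex and striatum of mice aged 3 months on the strain labelled c57BL-6N, in 10 groups of 6 libraries with 3 males and 3 females each. One line carries Htt Δ12, a huntingtin allele that lacks part of exon 12, as +/+, Δ12/+ and Δ12/Δ12. The other line carries a knockout allele (KO) as +/+ and KO/+. No animal was given an agent according to the labels. The 30 striatum-like libraries were 12 labelled KO/+, 12 labelled +/+ of the KO line and 6 labelled female Δ12/Δ12. By label they came from 15 mice, each with 1 cortex and 1 striatum library.

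Several labels went against the expression in these libraries. All 24 KO-line libraries were striatum-like whichever tissue they were labelled with, so 15 of the 30 striatum-like libraries were labelled cortex, and tissue by Slc17a7 differed from the label in 30 of the 60 libraries. Drd2, the dopamine receptor of indirect-pathway striatal neurons, lay between 34.8 and 71.3 rescaled FPKM in the striatum-like libraries and between 0 and 15.9 in the cortex-like ones. The sex transcripts Xist and Ddx3y went against the labelled sex in 13 of the 30. Within some labelled mice the cortex and striatum libraries held opposite sex transcripts, so those libraries cannot come from the same animal. For KO/+ male3, Xist was 43.2 and Ddx3y 0 in the striatum library, and 0.016 and 6.36 in the cortex library. Htt itself had a lowest, median and highest level of 12.7, 16.95 and 20.0 rescaled FPKM in the 12 libraries labelled KO/+ and of 16.6, 17.5 and 20.7 in the 12 labelled +/+, and these ranges overlapped. Genotype, tissue and sex below are therefore those of the labels, and the labels were not corrected. Estimated depth was 16.4 to 27.5 M fragments per striatum-like library, 17.0 to 23.6 M at the high end and 16.4 to 20.8 M at the low end.

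Fos is the textbook immediate early gene. In neurons, calcium entry and growth factor signals act through kinases on transcription factors that are already present, chiefly CREB, SRF and MEF2, and switch on a first wave of genes within minutes. This wave holds transcription factors (the AP-1, EGR and NR4A families and NPAS4), phosphatases and other proteins that shut the signal down, and proteins that act at the synapse, such as Arc. In bulk tissue, a change in the number of active cells and a change in the transcript per cell cannot be told apart.

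Rescaled Fos ran from 2.04 to 13.5 across the 30 libraries, a 6.62-fold range, with a median of 6.78. It was 10.1 ± 1.86 (SD, n = 8) in the high-Fos libraries and 3.92 ± 0.95 (SD, n = 8) in the low-Fos libraries. At the low boundary the eighth library had 5.45 and the ninth 5.55, and at the high boundary the values were 8.21 outside and 8.23 inside. The ranking is therefore continuous at both boundaries, with no gap that sets the ends apart. The fragments behind these values were estimated from the FPKM intervals, and the implied counts were mostly not whole numbers in some libraries (in the lowest, a share of 0.193 lay within 0.05 of one), so they are approximate. The estimate was 23.2 to 64.8 Fos fragments per low-Fos library and 109 to 212 per high-Fos library. In the 30 cortex-like libraries Fos lay between 2.13 and 8.64, and 28 of them were below the lowest high-Fos library.

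The labels of both ends were mixed. Among the high-Fos libraries 5 were labelled KO/+ and 3 +/+ of the KO line, 5 cortex and 3 striatum, and 5 male and 3 female. Among the low-Fos libraries 5 were labelled KO/+, 2 +/+ of the KO line and 1 Δ12/Δ12, 3 cortex and 5 striatum, and 2 male and 6 female. By label, 4 mice had a library at each end. Among them, KO/+ male3 and KO/+ female1 had opposite sex transcripts at the ends, so these labels do not each name a single animal. Ddx3y, from the Y chromosome, exceeded Xist in 6 high-Fos and 4 low-Fos libraries.

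**Figure D1:**
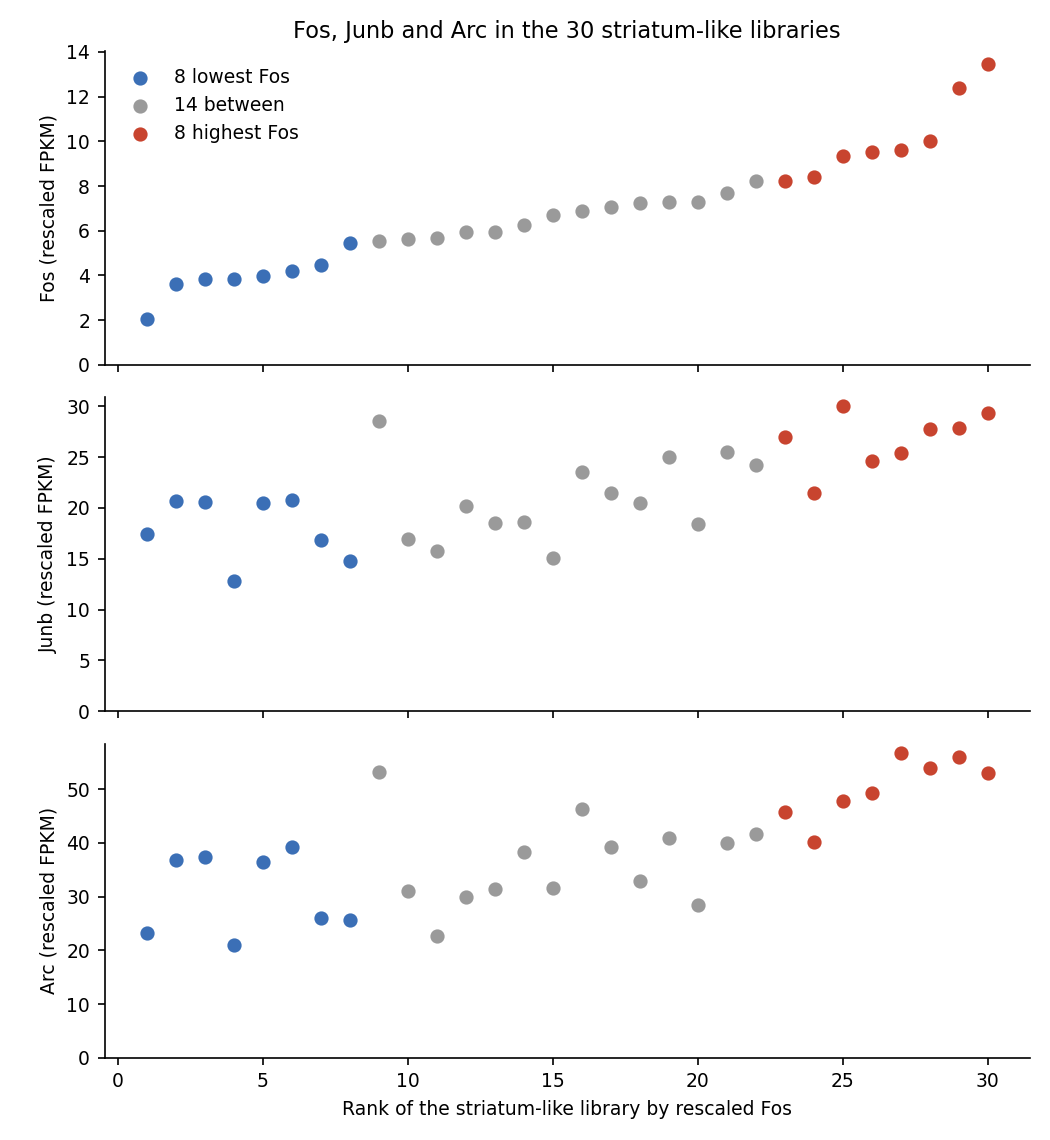
Rescaled FPKM of Fos, Junb and Arc (vertical axes) in each of the 30 striatum-like libraries, ordered by Fos (horizontal axis); blue, grey and red points are the 8 lowest, the 14 between and the 8 highest. Junb reached at most 20.7 in the blue points and at least 21.4 in the red ones, and the first grey point to the right of the blue ones had 28.5.

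Promoters are shown for Fos, which set the ranking, and for the 3 genes matched to a promoter table among the 4 that followed it most closely over the 30 libraries (Btg2, Dusp1, Arc and Junb), because CREB binds the cyclic AMP response element, whose full form is TGACGTCA and whose core is TGACG. The RefSeq promoter table used here (GRCm38.p6) was matched for 46 of the 62 genes formed by the activity lists with Fos, and Arc was not matched. Each run is the 250 bases before the transcript start, 5′ to 3′ on the gene's strand, and capitals mark TGACG on either strand, or the full element where it is present.
Fos: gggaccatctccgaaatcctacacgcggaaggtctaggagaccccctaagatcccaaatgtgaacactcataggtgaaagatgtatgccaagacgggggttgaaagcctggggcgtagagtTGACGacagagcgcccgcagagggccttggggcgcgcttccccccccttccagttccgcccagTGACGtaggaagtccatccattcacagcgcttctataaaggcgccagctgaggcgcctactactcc
Junb: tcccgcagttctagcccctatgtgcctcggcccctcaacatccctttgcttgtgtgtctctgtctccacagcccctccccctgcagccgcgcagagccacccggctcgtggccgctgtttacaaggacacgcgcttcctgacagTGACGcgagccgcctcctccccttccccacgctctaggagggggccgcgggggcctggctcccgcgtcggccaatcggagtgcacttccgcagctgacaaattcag
Btg2: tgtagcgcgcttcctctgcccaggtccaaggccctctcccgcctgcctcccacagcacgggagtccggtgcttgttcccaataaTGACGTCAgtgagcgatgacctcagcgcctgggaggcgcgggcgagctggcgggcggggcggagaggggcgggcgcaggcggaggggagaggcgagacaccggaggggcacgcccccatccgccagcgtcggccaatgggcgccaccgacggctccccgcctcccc
Dusp1: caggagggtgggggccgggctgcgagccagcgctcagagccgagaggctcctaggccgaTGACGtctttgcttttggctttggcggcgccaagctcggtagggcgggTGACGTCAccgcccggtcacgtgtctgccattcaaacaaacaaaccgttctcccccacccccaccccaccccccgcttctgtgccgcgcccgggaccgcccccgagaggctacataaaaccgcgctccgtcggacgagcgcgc
These lie at chr12:85473640-85473889 (plus strand), chr8:84978749-84978998, chr1:134079156-134079405 and chr17:26508473-26508722 (minus strand). Fos held 2 copies of the core and no full element, Junb 1 copy of the core, and Btg2 and Dusp1 1 full element each. Of all 32817 windows, 17.7% held the core and 1.55% the full element, and among the 68 windows of the activity genes and Fos these shares were 51.5% and 11.8%. The CArG box, which SRF binds, searched on both strands, was in 1.47% of all windows and 10.3% of the 68, and in none of the 4 shown. Some genes have several windows. By gene, the core was in 63% of the 46 matched and 19.8% of all 26994. The full element was in 17.4% and 1.77%. The CArG box was in 8.7% (4 genes) and 1.63%. Bases farther upstream than these 250 were not searched, so a box there, in Fos or another gene, would be missed. A match is a run of letters and not evidence of binding.

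Gene lists of the activity response were described in the order of their roles. Of 61 listed genes 54 had a mean of at least 0.5 rescaled FPKM over the 30 libraries, and Fosl1, Atf3, Maff, Dusp2, Bdnf, Ptgs2 and Amigo3 did not. Of the 54, 52 had a higher mean log2 level at the high end and 2 (Srf and Spry2) a lower one. Their median log2 difference was 0.29, against -0.01 over the 15958 genes kept, of which 7302 were positive and 8552 negative. A log2 difference of at least 0.5 was reached by 12 of the 54 (22.2%), against 242 of all genes kept (1.52%) in that direction and 151 (0.946%) in the other, where none of the 54 lay. Among protein-coding genes 69 of 12922 (0.534%) were as much higher. Genes of this list rise and fall with Fos in many settings, and Fos set the ends, so these counts describe the libraries and do not support the list.

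Junb, a JUN family partner of Fos in the AP-1 dimer, separated the ends. Its level in the low-Fos libraries had a lowest, median and highest value of 12.8, 18.9 and 20.7 rescaled FPKM, and in the high-Fos libraries of 21.4, 27.4 and 30.0. No low-Fos library reached any high-Fos library, and the log2 difference was 0.56 ± 0.11 (SE). Fosb, a Fos family member that also pairs with JUN proteins, had 1.66, 3.19 and 4.28 at the low end and 3.06, 4.27 and 7.65 at the high end. Its ranges overlapped, with a log2 difference of 0.45 ± 0.18. Jun differed by 0.33 ± 0.12 and Fosl2 by 0.28 ± 0.16, and Jund, which is made more steadily, by 0.06 ± 0.11. The median over these 5 AP-1 genes was 0.33, and all 5 were positive.

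Arc, which binds the postsynaptic density and drives removal of AMPA receptors, was the other activity gene with ranges apart. It had 21.0, 31.3 and 39.3 rescaled FPKM (lowest, median and highest) in the low-Fos libraries and 40.1, 51.2 and 56.7 in the high-Fos libraries. The log2 difference was 0.73 ± 0.14 (SE), or 1.66-fold. Where 3 values are set against 3 for other genes, they are the lowest, median and highest level with the low-Fos libraries first. The lowest high-Fos library and the highest low-Fos library differed by little, 40.1 against 39.3. Among the other genes with synaptic or secreted products, Nptx2, a neuronal pentraxin that clusters AMPA receptors, had 5.69, 6.45 and 10.2 against 7.20, 9.18 and 16.4, with overlap. Its difference was 0.51 ± 0.16. Inhba, a subunit of activin, differed by 0.41 ± 0.14 and Nrn1, or neuritin, by 0.55 ± 0.37. Homer1, a scaffold of the postsynaptic density, had 54.0, 73.6 and 94.3 at the low end and 69.2, 79.0 and 86.3 at the high end. These ranges overlapped, and the difference was 0.09 ± 0.09.

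Ranges were apart in 5 of the 15958 genes in the higher direction (0.0313%) and in 0 genes (0%) in the lower direction. Besides Arc and Junb these were Ptpn12, Wdr74 and Gm16314. Ptpn12, a cytoplasmic tyrosine phosphatase, had 5.28, 6.36 and 7.04 against 7.25, 7.57 and 8.38 rescaled FPKM at the low and high ends. Wdr74, a ribosome biogenesis factor, had 4.95, 5.72 and 6.05 against 6.20, 6.27 and 7.69. Gm16314 had 0.863, 1.14 and 1.33 against 1.51, 1.71 and 2.54. Gm16314 overlaps Gnb1l and Rtl10 (chr16:18498901-18501658, GRCm38), and the sources used here do not say whether counting used strand, so reads from these genes may not be separated. Ptpn12 is overlapped by Gm43216 in the same way. The differences were 0.28 ± 0.05, 0.22 ± 0.05 and 0.48 ± 0.08 on the log2 scale. Arc lies at chr15:74669083-74672570 and Junb at chr8:84976909-84978748, and no other annotated gene overlapped either.

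Separation of the ends depended on where the boundary fell and on the scale. The library just outside the low end, with 5.55 rescaled FPKM of Fos, had Junb at 28.5 and Arc at 53.1, inside the range of the high-Fos libraries. When any 1 of the 8 low-Fos libraries was left out and that library took its place, Arc, Junb and Wdr74 overlapped, and Ptpn12 and Gm16314 stayed apart. When any 1 of the 8 high-Fos libraries was left out and the next took its place, Arc and Junb stayed apart and the other 3 overlapped. The number of genes with ranges apart ran from 2 to 8 over these. With 10 libraries at each end 0 genes had ranges apart. In FPKM as deposited, with the same 16 libraries, the ranges of Arc and Junb overlapped and Gm16314 alone was apart.

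The other early transcription factors held 6 of the 12 activity genes that differed by at least 0.5, and Egr2 and Nr4a1 led them. For Egr2, a zinc-finger factor, the lowest, median and highest level was 2.01, 3.69 and 5.67 rescaled FPKM in the low-Fos libraries and 5.66, 6.29 and 7.21 in the high-Fos libraries. Only the extreme libraries touched (5.67 against 5.66), and the difference was 0.74 ± 0.18. Nr4a1, an orphan nuclear receptor, had 8.58, 21.8 and 27.6 against 24.2, 32.7 and 34.9, a difference of 0.72 ± 0.22. The low end of Nr4a1 reached into the high end.

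Npas4, a neuron-restricted factor that calcium induces, had 1.57, 2.62 and 4.57 at the low end and 3.29, 4.13 and 5.74 at the high end. The difference was 0.63 ± 0.18, and the high-Fos library had more Npas4 in 58 of the 64 pairs of 1 high and 1 low library. For Btg2, an antiproliferative early gene, the lowest, median and highest level was 1.82, 2.22 and 2.65 rescaled FPKM in the low-Fos libraries and 2.63, 3.59 and 4.59 in the high-Fos libraries. High exceeded low in 63 of 64 pairs, with a difference of 0.60 ± 0.10. Egr4 differed by 0.52 ± 0.16, Klf10 by 0.43 ± 0.18, Nr4a3 by 0.37 ± 0.14 and Csrnp1 by 0.34 ± 0.10.

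Not every early factor followed Fos. For Egr1, the EGR factor most used to map neuronal activity, the lowest, median and highest level was 23.6, 38.0 and 51.7 rescaled FPKM in the low-Fos libraries and 39.8, 44.1 and 51.7 in the high-Fos libraries. The low end reached as high as the high end, and the difference was 0.29 ± 0.16. Egr3 had 23.9, 29.7 and 36.9 against 27.4, 30.9 and 36.7, a difference of 0.09 ± 0.10, and Ier2 one of 0.03 ± 0.13. Srf, the factor that acts on the Fos promoter with its ETS partners, differed by -0.03 ± 0.10, and Crem, the inducible CREB relative, by 0.07 ± 0.11. Of the 19 genes of this list 18 were positive, with a median log2 difference of 0.35.

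Genes that feed back on the signal were higher by smaller amounts, with 20 of 21 positive and a median of 0.24. Dusp1 encodes a phosphatase that inactivates stress and mitogen-activated kinases in the nucleus. It had 5.62, 7.37 and 9.51 at the low end and 7.87, 10.3 and 13.4 at the high end, a difference of 0.43 ± 0.10, with 62 of 64 pairs in that direction. Dusp6, a cytoplasmic phosphatase of the same family, had 8.05, 11.4 and 12.9 against 12.7, 14.2 and 14.7, so that the ends met only at their edges, and differed by 0.36 ± 0.09. Gadd45g had 3.30, 4.89 and 6.29 against 5.75, 7.21 and 10.3 and differed by 0.56 ± 0.14, and Dusp14 by 0.51 ± 0.18. Sik1, a CREB-pathway kinase, differed by 0.31 ± 0.12 and Tiparp by 0.29 ± 0.10. Plk2 (0.05 ± 0.09), Sgk1 (0.03 ± 0.34) and Spry2 (-0.01 ± 0.08) differed by less than their SE.

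**Figure D2:**
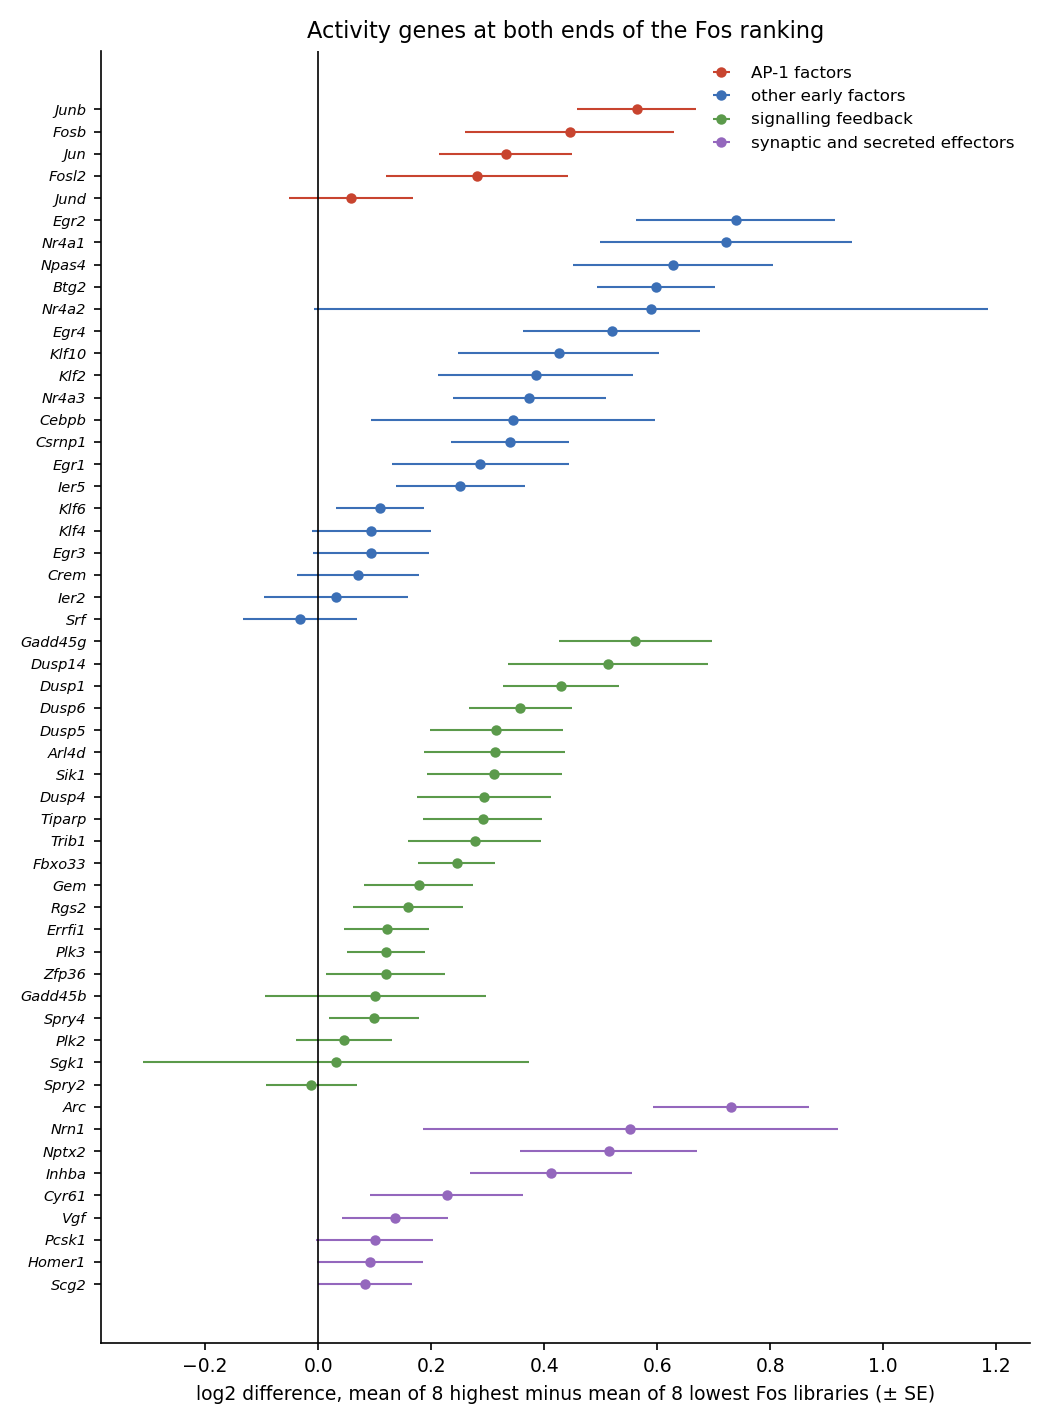
Log2 difference (horizontal axis, mean of the 8 high-Fos minus mean of the 8 low-Fos libraries, with bars for the SE) of each of the 54 activity genes kept (vertical axis), coloured by list. Egr2, Arc and Nr4a1 lie farthest right, above 0.7, and Srf and Spry2 lie left of 0.

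Over all 30 striatum-like libraries, the order by Fos was followed most closely by Btg2 (Spearman rho 0.83, n = 30 libraries that include both ends), then Dusp1 (0.72), Arc (0.72) and Junb (0.68). After these came Etfdh (0.66), Ppm1h (0.65), Egr2 (0.65), Gadd45g (0.65), Ptpn12 (0.64) and Thsd7b (0.63). Of the 10, 6 were on the activity lists. A rho of at least 0.5 was found for 10 of the 54 activity genes (18.5%) and for 64 of all 15958 genes (0.401%). These values share the libraries that set the ends and are given as a description. Etfdh encodes an electron carrier of mitochondrial fatty acid oxidation, and had 5.27, 6.06 and 6.80 at the low end and 6.50, 7.22 and 8.37 at the high end. Its difference was 0.26 ± 0.06.

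The low-Fos libraries fell into separate sets for Arc, Junb and Egr1. In the 4 with Xist above Ddx3y, all labelled KO/+, Arc lay between 36.5 and 39.3, Junb between 20.5 and 20.7 and Egr1 between 40.7 and 51.7 rescaled FPKM. In the 4 with Ddx3y above Xist, of which 1 was labelled KO/+, Arc lay between 21.0 and 26.1, Junb between 12.8 and 17.4 and Egr1 between 23.6 and 35.4. Fos overlapped between the sets, at 3.64 to 4.19 and 2.04 to 5.45, and so did Npas4, at 1.71 to 2.88 and 1.57 to 4.57. Within libraries with Ddx3y above Xist, 6 high and 4 low, the log2 difference of Arc was 1.08 and the median over the activity genes 0.41, with 54 of 54 positive. Of these, 5 of the 6 high and 1 of the 4 low were labelled KO/+, so labelled genotype differed as well. In the 2 high libraries with Xist above Ddx3y, 0 labelled KO/+, the medians of Arc, Junb and Egr1 were 46.8, 28.5 and 43.3. In the 4 low ones they were 37.1, 20.6 and 48.5, so Egr1 was lower at the high end there. Within libraries labelled KO/+, 5 at each end, the median was 0.19, with 47 of 54 positive. There Arc had 26.1, 36.8 and 39.3 at the low end and 40.1, 53.9 and 56.7 at the high end, and Nr4a1 had 13.5, 27.4 and 27.6 against 24.2, 30.8 and 33.5. Fos chose the libraries of these subsets too, so their counts describe the libraries and do not support the list. The part of sex and of genotype in the difference between the ends was not tested.

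Few genes for the signalling proteins upstream of Fos were higher at the high end. Of 14 such genes, among them Camk2a, Creb1 and Mef2a, 11 were negative, 0 reached a log2 difference of 0.5 in either direction, and the median was -0.07. Creb1 differed by 0.00 ± 0.07 and Camk4, a nuclear calcium-dependent kinase, by -0.19 ± 0.08. Of 15 clock genes 12 were negative, with a median of -0.08, and Per1, which activity can also induce, had a difference of 0.08 ± 0.14. Of 7 genes that glucocorticoids induce 5 were negative, with a median of -0.06. Of 7 heat shock genes 6 were positive, with a median of 0.13.

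Markers of cell types were described with the same measure. Striatal projection neuron genes were slightly lower at the high end in 12 of 13 cases, with a median of -0.07, and their summed level ran from 1561 to 2111 rescaled FPKM at the high end and from 1511 to 2507 at the low end. Drd1 differed by -0.10 ± 0.13, Drd2 by -0.07 ± 0.13 and Adora2a, the adenosine receptor of indirect-pathway neurons, by -0.24 ± 0.12. Markers of cortical excitatory neurons were higher in 6 of 8, with a median of 0.32, and their summed level ran from 20.5 to 98.7 at the high end and from 18.6 to 78.0 at the low end. Slc17a7 had 6.87, 14.9 and 49.8 at the low end and 7.16, 29.9 and 69.6 at the high end. A cut at 40 FPKM as deposited, chosen after seeing the data, left out the 2 high-Fos libraries with the most Slc17a7. The median over the activity genes was then 0.27, with 51 of 54 positive, against 0.29 with them. The low-Fos library with the most Slc17a7 had 39.96 FPKM as deposited (49.8 rescaled) and stayed in.

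Choroid plexus genes were the only one of the 17 lists in which every member differed by at least 0.5, with 5 of 5 higher and a median of 0.86. Ttr, or transthyretin, which that tissue secretes, had 29.6, 827 and 2025 rescaled FPKM at the low end and 294, 1321 and 1606 at the high end. These ranges overlapped almost wholly, and the difference of 1.34 ± 0.87 came with the largest SE of the genes listed. The low-Fos library with the least Fos also had the least Ttr, 29.6. The summed level of the list ran from 34.5 to 2113 at the low end and from 308 to 1677 at the high end. Its part in the differences between the ends was not tested.

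Other cell types differed by less. Medians were -0.02 for astrocyte, -0.06 for oligodendrocyte, -0.05 for microglia, -0.03 for endothelial and 0.06 for interneuron genes. All 7 microglia genes were negative, the farthest, Tmem119, by -0.11 ± 0.07. Blood genes were all positive, with a median of 0.09. Hbb-bt, an adult beta-globin, stood out among them with 11.8, 15.5 and 19.2 against 16.6, 22.5 and 24.2 at the low and high ends, a difference of 0.45 ± 0.10, while its close copy Hbb-bs differed by 0.09 ± 0.09. Reads of such copies may be shared, so the split between them is uncertain.

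**Figure D3:**
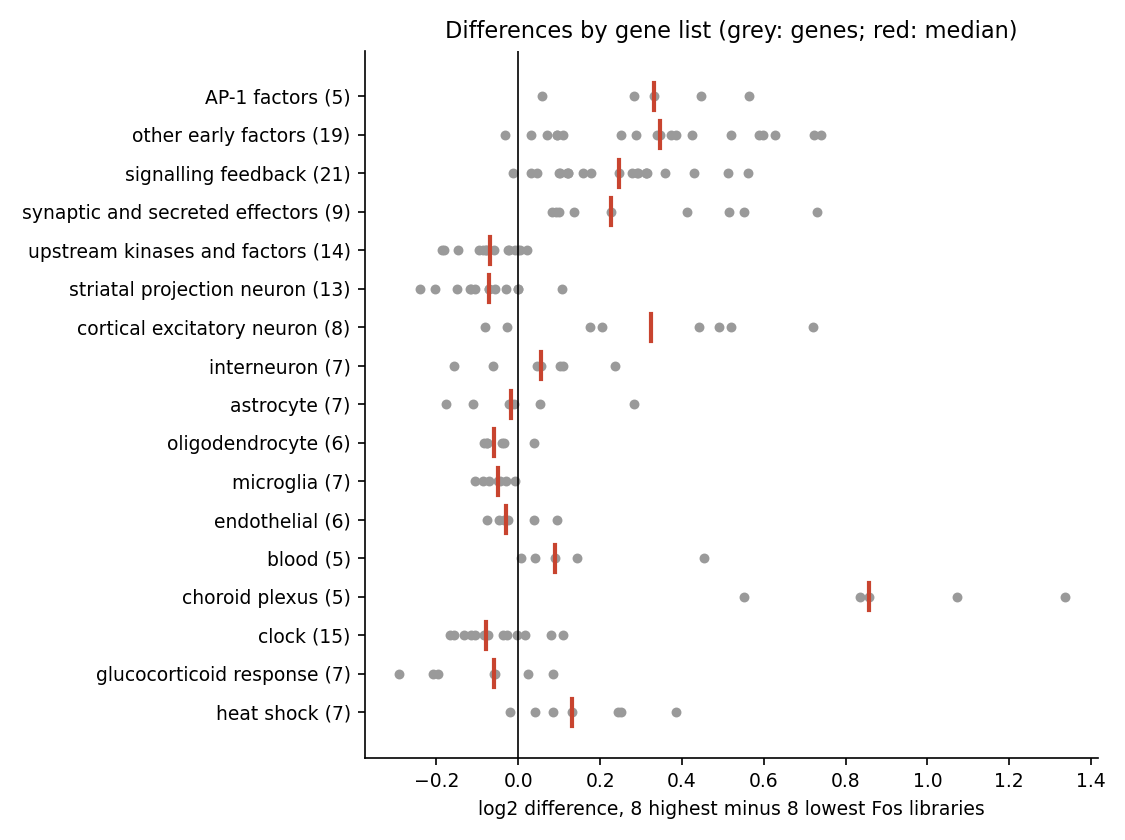
Log2 difference between the high-Fos and low-Fos libraries (horizontal axis) for the genes of 17 lists (rows, with the number of genes kept in parentheses); grey points are genes and red bars list medians. The 4 activity lists have medians between 0.23 and 0.35, and choroid plexus genes have a median of 0.86.

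Whether the same genes vary with Fos was tested in libraries outside both ends. In the 14 striatum-like libraries between the ends, Fos spanned 5.55 to 8.21 rescaled FPKM. By label these were 2 KO/+, 7 +/+ of the KO line and 5 Δ12/Δ12. The slope of each gene's log2 level on log2 Fos was fitted with limma over 15764 genes, with Benjamini-Hochberg adjustment. The main fit had no term for genotype, sex or mouse. No slope passed an adjusted p of 0.05 (0% of genes). Unadjusted, 694 passed the same value, 344 of them with a positive slope (2.18% of genes). In data simulated for these libraries, the fit called 1 of 100 planted slopes of size 0.5 and 18 of 100 of size 1. The absence of calls therefore does not show an absence of slopes. Of 54 activity genes 38 had a positive slope, with a median of 0.20 against -0.01 over all genes, and 2 passed unadjusted in that direction (3.7%). These were Btg2, with a slope of 1.42 ± 0.27 (SE, limma adjusted p = 0.446), and Dusp1, with 0.72 ± 0.30 (adjusted p = 0.968). Junb had a slope of 0.57 ± 0.40 and Arc of 0.51 ± 0.47 (limma adjusted p = 0.968 for each). Without the library just outside the low end, labelled cortex KO/+ female2, these slopes were 1.05 and 1.07, and without that labelled cortex Δ12/Δ12 female1 they were 0.40 and 0.15. With log2 Ttr as a covariate, added after seeing the data, they were 0.84 and 0.92, and 0 genes passed (622 unadjusted). In FPKM as deposited the median slope of all genes moved to 0.18. The slope of Wdr74, one of the genes whose ranges were apart, was -0.44 ± 0.17. A slope of 1 means that the gene and Fos change by the same factor.

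The 30 cortex-like libraries, none of which entered the ranking, were all of the Δ12 line by label, as +/+, Δ12/+ and male Δ12/Δ12. Each labelled mouse gave a cortex and a striatum library, and the main fit had no term for genotype, sex or mouse. In these libraries 0 of 15231 genes passed (0%). Unadjusted, 927 passed, 397 of these with a positive slope (2.61% of genes). In simulated data this fit called 53 of 100 planted slopes of size 0.5 and 94 of 100 of size 1. Of 55 activity genes 43 had a positive slope, and 15 passed unadjusted, all positive (27.3%). Arc had the lowest limma adjusted p among them, 0.267, with a slope of 0.67 ± 0.15, and Jun the same adjusted p with 0.28 ± 0.06. Nr4a1 had 0.59 ± 0.14 and Junb 0.48 ± 0.12 (limma adjusted p = 0.307 for each). Egr1 had 0.35 ± 0.10, Dusp1 0.41 ± 0.13 and Btg2 0.42 ± 0.17. Of the 5 genes with ranges apart, Ptpn12 had a slope of 0.29 ± 0.12 and Wdr74 of -0.11 ± 0.10 in cortex-like libraries, and Gm16314 did not pass the filter there. Levels differed as well. Junb had a median of 32.4 rescaled FPKM in the cortex-like libraries and 20.4 in the 14 striatum-like ones, and Arc had 25.6 and 35.6. Of these 14 only the 5 labelled Δ12/Δ12 were of the Δ12 line. Tissue, line and genotype therefore cannot be told apart in levels or slopes. A test of the difference between the slopes of both sets, added after seeing the data, called 0 of 14006 genes with limma (169 at an unadjusted p under 0.05). It rests in part on the 14 striatum-like libraries, where few simulated slopes were called, so it cannot show equal slopes.

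**Figure D4:**
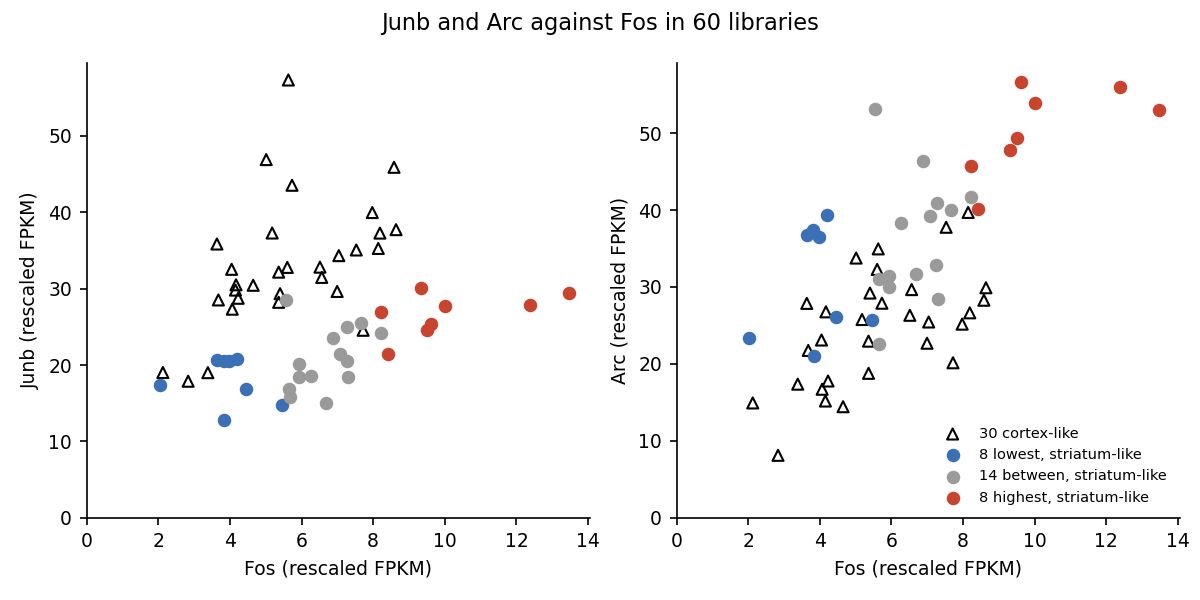
Rescaled FPKM of Junb (left) and Arc (right) against Fos (horizontal axes) in all 60 libraries; filled points are striatum-like libraries (blue, grey and red for the 8 lowest, 14 between and 8 highest Fos) and open triangles the 30 cortex-like ones. Cortex-like libraries reach at most 8.64 on the Fos axis, and their median Junb is 32.4 against 20.4 in the grey points.

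Labelled genotype was compared across the KO line, 12 libraries labelled KO/+ against 12 labelled +/+, because it does not depend on Fos. The title of 1 of the 12, striatum KO/+ female3, names the Δ12 line, and its genotype label placed it here. Fos itself had a lowest, median and highest level of 3.64, 6.21 and 13.5 in KO/+ and of 3.83, 6.98 and 9.51 in +/+. The KO/+ libraries held 5 of the 8 high-Fos and 5 of the 8 low-Fos libraries, and their Fos spread more (SD 3.51 against 1.65). With labelled sex and tissue as covariates, limma called 629 of 15916 genes higher (3.95%) and 937 lower (5.89%) in KO/+ at an adjusted p under 0.05. In FPKM as deposited the same test called 101 higher and 2214 lower, and the median log2 difference of all genes moved from 0.02 to -0.10. By label each mouse gave 2 of these libraries, and nothing in the labels describes separate extractions, so the p-values measure the spread between these libraries. For some labelled mice, such as KO/+ male3, opposite sex transcripts contradict a shared animal.

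Of 53 activity genes tested, 6 rose in libraries labelled KO/+ and none fell. Over all 15916 genes, 3.95% were called higher and 5.89% lower. Htt itself differed by -0.105 ± 0.069 (SE, limma adjusted p = 0.363), so the fit called no fall of the gene that the label names as knocked out. Nr4a2, an orphan nuclear receptor also made by deep-layer cortical and claustral neurons, had 0.38, 0.75 and 3.08 rescaled FPKM (lowest, median and highest) in +/+ and 1.12, 3.49 and 7.78 in KO/+. The ranges overlapped, and the log2 difference was 1.36 ± 0.28 (SE, limma adjusted p = 0.00322). Homer1 had 54.0, 69.4 and 79.2 in +/+ and 72.2, 82.2 and 94.3 in KO/+, a difference of 0.25 ± 0.06 (limma adjusted p = 0.0107). Dusp14 rose by 0.49 ± 0.15, Egr3 by 0.29 ± 0.09, Srf by 0.25 ± 0.07 and Crem by 0.21 ± 0.06, each with an adjusted p of 0.0397 or lower in limma. In FPKM as deposited Nr4a2 alone of the 6 passed, and Klf6 was lower. With the replicate number as a block, Dusp14 (limma adjusted p = 0.0663) and Egr3 (0.0638) did not pass. With each of the 24 libraries left out in turn, Nr4a2 and Homer1 passed every time, and each of the other 4 lost its call without some library. The number of activity genes that rose was 2 without cortex +/+ female2, striatum +/+ female1, cortex KO/+ female2 or striatum KO/+ female1. It was 3 without striatum +/+ male1, striatum +/+ male2, striatum KO/+ female2 or striatum KO/+ male1 (where Dusp4 fell), and 9 without cortex KO/+ male1. Without striatum KO/+ female3, whose title conflicts, it was 4, with Dusp14 and Egr3 lost. With log2 Slc17a7 as a covariate, added after seeing the data, 5 of the 6 passed and Crem did not (adjusted p = 0.0601, limma). The difference of Nr4a2 was then 0.94 ± 0.17 in place of 1.36, and that of Crem 0.19 in place of 0.21. Those of Homer1, Srf, Dusp14 and Egr3 were 0.29, 0.31, 0.55 and 0.35.

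Between the ends of the Fos ranking these 6 genes are given side by side, and the difference between the comparisons was not tested. Homer1 differed there by 0.09 ± 0.09, Egr3 by 0.09 ± 0.10, Crem by 0.07 ± 0.11 and Srf by -0.03 ± 0.10, while Dusp14 differed by 0.51 ± 0.18 and Nr4a2 by 0.59 ± 0.60. Junb and Arc, which separated the ends, had differences of 0.22 ± 0.12 and 0.32 ± 0.14 between labelled genotypes (limma adjusted p = 0.285 and 0.167). With log2 Fos as a covariate, Arc was higher in KO/+ by 0.34 ± 0.09 (limma adjusted p = 0.0213), and 11 activity genes were higher in place of 6, while 618 of all genes were higher in place of 629. The 2 comparisons share 15 libraries. Other markers moved with the labelled genotype. All 6 oligodendrocyte genes tested were lower in KO/+, with a median of -0.32, and 4 of 8 cortical excitatory genes were higher and 1 lower. Slc17a7 had a median of 29.9 in KO/+ and 12.8 in +/+. Their part in the differences between the labelled genotypes was not tested beyond the covariate given for Slc17a7.

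**Figure D5:**
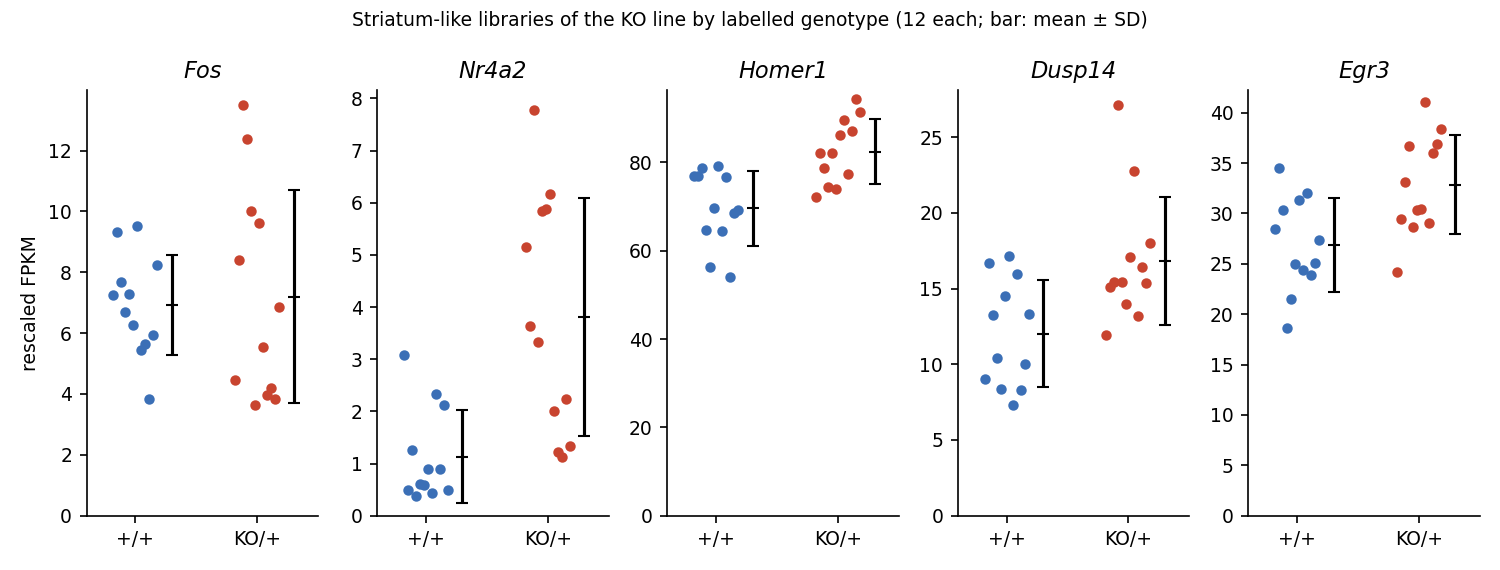
Rescaled FPKM (vertical axes, 1 panel for each gene) of Fos, Nr4a2, Homer1, Dusp14 and Egr3 in the 12 striatum-like libraries labelled +/+ (blue) and the 12 labelled KO/+ (red) of the KO line; black bars are the mean ± SD. Fos has means of 6.93 and 7.20, and Homer1 reaches at most 79.2 in +/+ and at least 72.2 in KO/+.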

How the data were processed

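Cortex and striatum RNA was rRNA-depleted and sequenced from directional libraries. The submitters' processing notes name bcl2fastq 2.20, Trimmomatic 0.30, TopHat2 2.0.14, SAMtools 1.3, HTSeq 0.6.1p1 and GRCm38.p4. The authors deposited 1 table per library with an FPKM value and its lower and upper confidence bound for each of 47597 entries, and the strand setting of the counting is not given in the sources used here. Read counts were not analysed here, and depth was estimated from the FPKM intervals. It limits low genes most.

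Entries were joined by identifier, since the row order of 59 tables differed from that of the first, and 23 entries with a failed estimate in any library were dropped. FPKM values were divided by a median-of-ratios factor over 13235 entries above 0 in all 60 libraries (0.761 to 1.38). Differences are on the scale of log2(rescaled FPKM + 0.5), which understates the change of low genes, and SE is that of the difference of means. Genes averaging at least 0.5 rescaled FPKM over the libraries of a comparison were kept. Ends of 8 libraries were described without a test. Slopes on log2 Fos (14 and 30 libraries) and labelled KO/+ against +/+ (24 libraries, covariates labelled sex and tissue) were fitted with limma 3.58.1 in R 4.3.3, with Benjamini-Hochberg adjustment over all genes kept, after the scripts were tested on simulated data. Python 3.11.15, pandas 2.3.3 and numpy 2.4.6 did the rest.

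Named genes were members of the lists, each list with its count, up to 10 genes in each direction with the largest differences among those with ranges apart, the 10 with the highest rho (both among genes averaging at least 1 rescaled FPKM), and Htt, Xist and Ddx3y as label checks. The libraries, lists and tests were chosen with earlier results of these data known, and the log2 difference of 0.5 was chosen after seeing the values. Alternatives were other scalings, pseudocounts, filters, thresholds and numbers of libraries per end, a replicate block, added covariates and leaving out each library. Library groups follow the labels, which expression contradicted for many libraries.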

Additional observations from a re-analysis of the deposited data

Results flagged for a closer look

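Within the 8 libraries of each end, 31 genes were checked for 1 library far from the others (by Dixon's ratio of the gap to the range), which makes 62 groups, and 8 stood out. Chance gives about 1 in 20 groups. Values are rescaled FPKM, with the nearest other library after each. At the high end, the library labelled striatum KO/+ male1 was highest for Dusp14, at 27.1 (next 17.2), and for Gadd45g, at 10.3 (next 7.64). The library labelled cortex KO/+ female1 had Hspa1a, a heat shock gene, at 3.65 (next 1.36). The library labelled cortex +/+ male2 had Fosb at 7.65 (next 4.60), and that labelled striatum +/+ female3 had Dusp1 at 13.4 (next 10.5). Gm16314 was highest at 2.54 (next 1.91) in the library labelled cortex KO/+ male2. Dusp6 was lowest at 12.7 (next 13.8) in that labelled striatum KO/+ male2. At the low end, Nptx2 was highest at 10.2 (next 7.48) in the library labelled striatum KO/+ female2.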

How the results depend on the processing

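The count of genes with ranges apart, 5, depended most on the choices made. It was 1 in FPKM as deposited, 9 with quantile normalization, 65 with 6 libraries per end, 0 with 10, and 2 with the Slc17a7 threshold at 50 FPKM. Alternatives chosen after seeing the data gave 3 (ranked by Fos as deposited), 206 (Ddx3y above Xist only), 172 (labelled KO/+ only) and 9 (Slc17a7 under 40 FPKM), with fewer libraries in the last 3. Ranges of fewer libraries overlap less often, so these last 3 counts and the 65 cannot be read as stronger separation than 5. Leaving out 1 library gave 2 to 8: 2 without KO/+ striatum female1, +/+ striatum female3, +/+ cortex male2, KO/+ cortex female1 or KO/+ striatum male1, 3 without Δ12/Δ12 striatum female3, +/+ striatum female1, KO/+ cortex female3 or +/+ cortex female2, and 8 without KO/+ cortex male1. Genes past a log2 difference of 0.5 in either direction numbered 393, 630 with a pseudocount of 0.1, and 364 to 430 with 1 library left out. The median of the activity genes stayed positive, at 0.20 to 0.30 with 1 library left out. Slopes on Fos passed in 0 genes with each library left out. The labelled genotype called 1566 genes, 971 without the filter and 1161 to 1774 with 1 library left out. With the replicate number as a replicate block it called 1333, and Dusp14 (limma adjusted p = 0.0663) and Egr3 (0.0638) no longer passed. The deviations of same-numbered libraries had a mean correlation of -0.06 over 12 pairs. For the 2 libraries of the same labelled mouse it was 0.002 over 12 pairs. A check that finds no correlation within a labelled mouse cannot tell whether the numbers pair libraries. For some labelled mice, such as KO/+ male3 and KO/+ female1, opposite sex transcripts show that the 2 libraries are not from the same animal. In 209 combinations of a result and a setting, counts stayed within 1.5 times, or the median of the activity genes kept its direction and moved by less than the SD between libraries. The genotype count in FPKM as deposited is among them, though its split by direction changed as given above. A count of genes with ranges apart that stayed close could hold other genes. The causes of these changes were not tested.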
